A study of Mus musculus with 5 samples.

Results

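Withdrawal of a high-fat, high-fructose (HFHFr) diet was compared with continued feeding by setting the liver array titled HFHFr-N against the array titled HFHFr-F, which are 2 of the 5 arrays of the series. Both groups were male C57BL/6J mice, an inbred laboratory strain, aged 25 weeks. HFHFr-N mice had received HFHFr food over 16 weeks and normal food over the last 4 weeks, and are labelled insulin resistant. HFHFr-F mice stayed on HFHFr food for all 20 weeks and are labelled with severe insulin resistance. The untreated Control group of the same strain, sex and age is given beside many of the values, and a second pair that received all-trans retinoic acid in the last 4 weeks, in normal diet (HFHFr-NA) or in HFHFr diet (HFHFr-FA), is used as a side comparison. The labels call HFHFr-NA mice recovered and HFHFr-FA mice not insulin resistant with slight steatosis. Each array carried the pooled liver RNA of 5 mice, so every value below is 1 measurement of 1 pool, no difference has a replicate check, and no test between groups was possible.

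Fat and fructose reach the liver through different routes, and both feed the synthesis and storage of lipid in hepatocytes. The transcription factors SREBP1 and ChREBP drive the genes of fatty acid synthesis and SREBP2 those of cholesterol synthesis, whereas PPARA drives those of fatty acid oxidation. A fat-laden liver can also gather macrophages that take up lipid and activate matrix-producing stellate cells. Taking the diet away asks which of these programmes stand lower or higher than in livers kept on it.

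Signals are given as multiples of each array's 75th percentile over its non-control spots, on a linear scale, and differences as log2 ratios of HFHFr-N over HFHFr-F, so that a negative ratio means a lower signal after withdrawal. A probe counted as measured where the scanner software marked it well above background, which held for 48.4% of spots in HFHFr-N and 48.3% in HFHFr-F. Where only 1 of both arrays measured a gene, the ratio is a bound and is written as "at least". Probes spotted several times on an array gave a spread of 0.10 (SD, log2) for a ratio, which covers spots of 1 array and leaves out mice, extractions and arrays. The liver label was borne out by the general hepatocyte markers, of which all 14 on the array were well above background in both groups. Albumin (Alb) stood at 1689 in HFHFr-N, 1430 in HFHFr-F and 1617 in Control, and 1 of the 14 markers, Serpina1c, differed by 2-fold.

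Of 14801 genes measured, 319 were at least 2-fold higher in HFHFr-N and 538 were at least 2-fold lower, which is 2.16% and 3.63% of them, and 5.79% in either direction. The median of all genes was 0.10, and it moved to -0.01 when each array was centred on its median or scaled by cyclic loess, so list medians are to be read against it. Among lists with at least 5 genes measured, the lowest medians were those of lipid-associated macrophages, monocytes and neutrophils, bile duct cells, inflammation, matrix, major histocompatibility complex class II and cholesterol synthesis. The highest medians belonged to male-biased liver genes, the urea cycle and amino acid catabolism, and periportal hepatocyte markers.

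**Figure D1:**
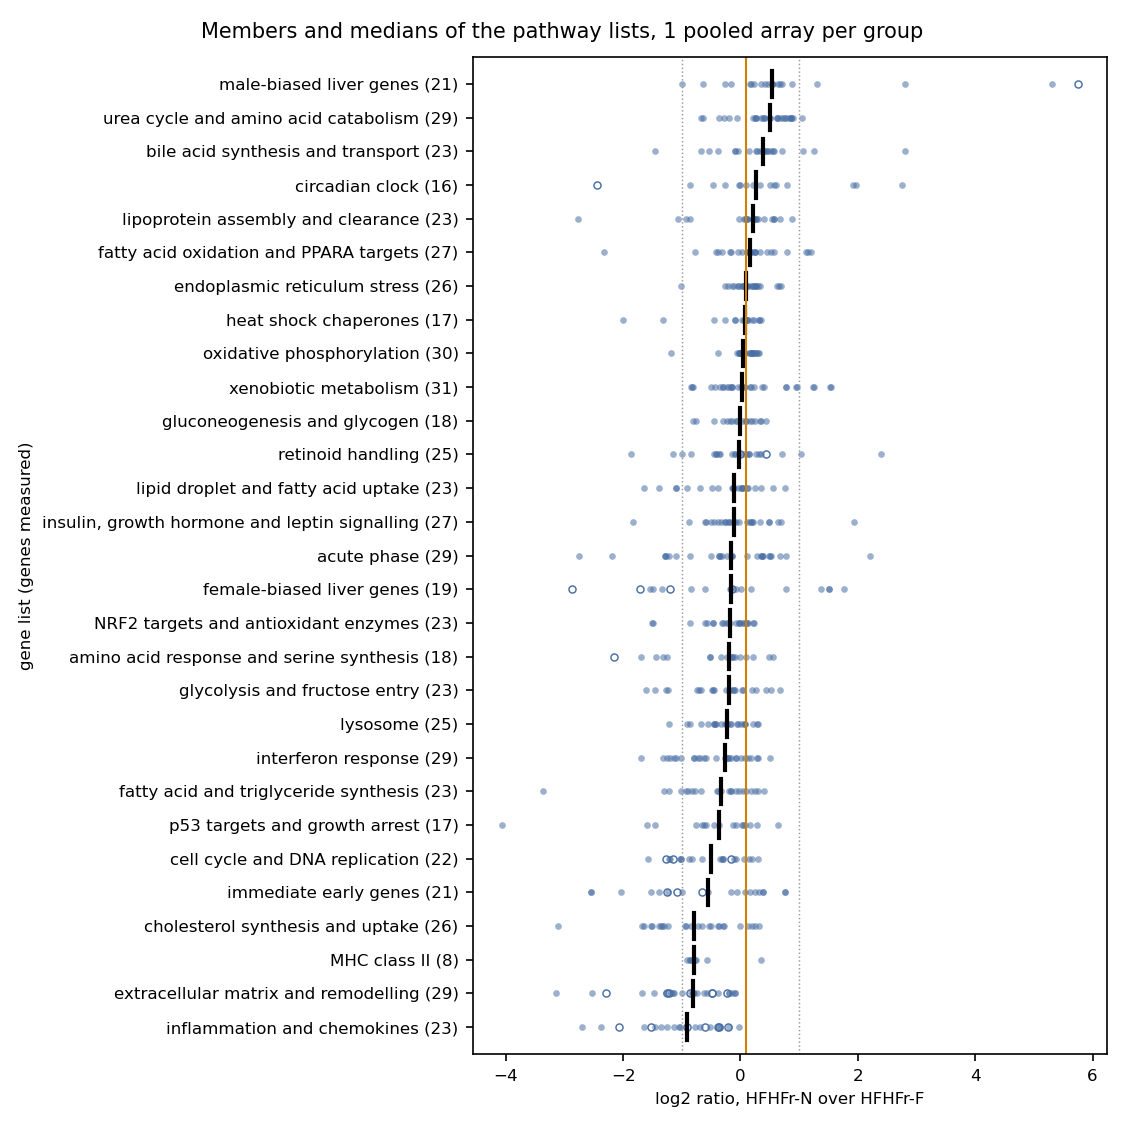
Log2 ratio of HFHFr-N over HFHFr-F (x axis) for every measured member of the 29 pathway lists (y axis, number measured in brackets), with filled points for genes measured on both arrays, open points for bounds, black bars for list medians, an orange line at the median of all genes (0.10) and dotted lines at 2-fold. The inflammation list lies lowest (median -0.92) and the male-biased list highest (median 0.54).

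Cholesterol synthesis was the metabolic pathway with the most members lower after withdrawal. Of 26 genes of the list, all measured on both arrays, 10 were at least 2-fold lower in HFHFr-N, none was 2-fold higher, and the median was -0.78. The enzyme with the largest difference was Sqle (probe at chr15:59162384-59162443, mm9), the squalene epoxidase that makes the first oxygenated sterol precursor. Its signal was 0.464 in HFHFr-N, 4.03 in HFHFr-F and 0.789 in Control, a log2 ratio of -3.12. HFHFr-F thus stood above both other pools, and HFHFr-N lay under Control. In the side pair Sqle was at 1.19 in HFHFr-NA and 3.68 in HFHFr-FA, the latter near HFHFr-F.

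Because 10 members were at least 2-fold lower in the same array, promoters of Mvk, Mvd, Idi1, Msmo1 and Dhcr7 are shown. Those of Cyp51 and Nsdhl, also among the 10, are left out. Hmgcs1 was not among the 10 and is shown only for its sterol element. RefSeq promoter entries (GRCm38.p6) were held for 7 of the 10 and for 18 of the 26. CCAAT, the site bound by nuclear factor Y, was searched on both strands in the 250 bases before the start. It stood in 16 of the 18 genes (88.9%) against 37.5% of 27025 genes. Among clock genes it stood in 11 of 17 (64.7%), and among retinoid genes in 11 of 24 (45.8%). Members under 2-fold held it too, among them Ebp (log2 ratio 0.31), Tm7sf2 (0.12) and Insig1 (-0.28). The share therefore describes the list and not its lower members. A core of the sterol regulatory element, TCACNCCAC, which can share no more than 1 base with CCAAT, stood in 1 of the 18 (Hmgcs1, 5.56%) against 1.22% of all genes. Capitals mark CCAAT or its reverse complement and, in Hmgcs1, also the sterol element. Each line runs 5′ to 3′ toward the start of the gene. The windows are chr5:114444169-114444268 on the plus strand for Mvk, chr8:122443423-122443522 on the minus strand for Mvd, chr13:8885506-8885605 on the plus strand for Idi1, chr8:64733579-64733678 on the minus strand for Msmo1, chr7:143823067-143823166 on the plus strand for Dhcr7 and chr13:119690206-119690315 on the plus strand for Hmgcs1. The Dhcr7 window shown holds neither motif, but another promoter entry of that gene holds 2 CCAAT boxes, and a match describes letters only.
Mvk: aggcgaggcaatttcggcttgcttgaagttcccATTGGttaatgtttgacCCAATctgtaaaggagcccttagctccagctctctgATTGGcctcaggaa
Mvd: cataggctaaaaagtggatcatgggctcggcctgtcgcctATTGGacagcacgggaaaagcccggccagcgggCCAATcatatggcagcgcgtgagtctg
Idi1: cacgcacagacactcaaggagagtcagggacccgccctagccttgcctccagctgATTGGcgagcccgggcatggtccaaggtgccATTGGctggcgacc
Msmo1: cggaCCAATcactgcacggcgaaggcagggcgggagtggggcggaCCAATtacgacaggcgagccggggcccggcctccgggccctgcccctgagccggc
Dhcr7: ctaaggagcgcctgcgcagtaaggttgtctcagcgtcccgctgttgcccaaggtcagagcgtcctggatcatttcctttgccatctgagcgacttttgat
Hmgcs1: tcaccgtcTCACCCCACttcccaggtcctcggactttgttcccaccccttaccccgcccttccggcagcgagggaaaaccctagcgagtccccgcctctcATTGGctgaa

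Along the pathway, the enzymes of the mevalonate arm came first. Mvk, mevalonate kinase, had a signal of 0.325 in HFHFr-N, 0.828 in HFHFr-F and 0.318 in Control (log2 ratio -1.35). Mvd, which decarboxylates mevalonate pyrophosphate, had 0.355, 0.927 and 0.337 in the same order (log2 ratio -1.38). For both enzymes HFHFr-N lay close to Control and HFHFr-F alone stood high. Fdps, which makes farnesyl pyrophosphate, stood at 1.51 in HFHFr-N against 4.84 in HFHFr-F and 1.72 in Control (log2 ratio -1.68). Idi1, the isomerase before it, had a log2 ratio of -1.64 and a second probe gave -0.85, under 2-fold. The files place the brighter probe on chromosome 2 while the RefSeq gene lies on chromosome 13, so the first value may belong to a copy. Among the later sterol steps, Msmo1 had signals of 13.5 in HFHFr-N, 38.4 in HFHFr-F and 16.6 in Control (log2 ratio -1.51). Cyp51 (log2 ratio -1.31), Nsdhl (-1.33) and Dhcr7 (-1.24) were also more than 2-fold lower in HFHFr-N. Each of these enzymes removes or reduces a group on the sterol ring system.

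Other members of the same list differed less. Srebf2, which encodes SREBP2, had signals of 4.52 in HFHFr-N, 8.11 in HFHFr-F and 5.14 in Control (log2 ratio -0.84), and so lay under 2-fold. Hmgcs1 was just under 2-fold lower (log2 ratio -0.94), and Insig1, which retains SREBP precursors in the endoplasmic reticulum, differed by -0.28. At the other end, Ebp, a sterol isomerase, had 218 in HFHFr-N, 175 in HFHFr-F and 203 in Control (log2 ratio 0.31), and 5 of the 26 ratios were above 0.

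**Figure D2:**
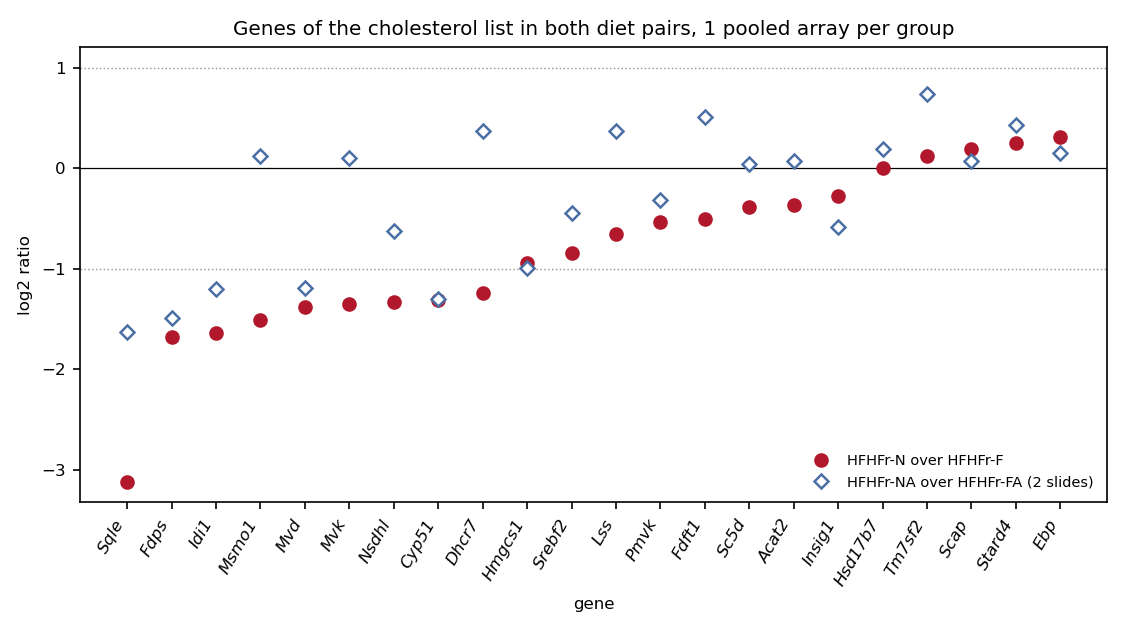
Log2 ratio (y axis) of 22 of the 26 cholesterol genes (x axis, ordered by the ratio of HFHFr-N over HFHFr-F) in that pair (red points) and in HFHFr-NA over HFHFr-FA (open blue diamonds), 1 pooled array per group, with dotted lines at 2-fold. Sqle lies at -3.12 in the first pair and -1.63 in the second, whereas Msmo1 lies at -1.51 and 0.13.

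Fatty acid synthesis showed a few large differences among many small ones. Of 23 measured genes 4 were at least 2-fold lower in HFHFr-N and none was higher, with a median of -0.33. Thrsp (chr7:104565562-104565621, mm9), the small nuclear protein that follows lipogenic stimuli, had signals of 10.1 in HFHFr-N, 103 in HFHFr-F and 3.09 in Control. The log2 ratio was -3.36, and HFHFr-N remained above Control. Fasn, fatty acid synthase, had 14.6 in HFHFr-N, 35.9 in HFHFr-F and 17.5 in Control (log2 ratio -1.30), so that only the continued diet stood high. Acacb, the mitochondrial acetyl-CoA carboxylase, and Scd2, a desaturase, were the other two past 2-fold, at -1.02 and -1.22. Acacb came under 2-fold, at -0.74, when all probes of the gene were averaged.

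Several lipogenic genes differed little between withdrawal and continued feeding. Srebf1, which encodes SREBP1, had signals of 39.4 in HFHFr-N, 45.3 in HFHFr-F and 11.9 in Control. The pools of both HFHFr groups therefore lay above Control and close to each other, at a log2 ratio of -0.20. Scd1, the main liver desaturase, had 249, 313 and 214 in the same order (log2 ratio -0.33), and HFHFr-N lay between the other pools. Among lipid droplet genes, Cidea had 56.5 in HFHFr-N, 62.4 in HFHFr-F and 13.3 in Control (log2 ratio -0.14), and Pparg, the nuclear receptor of fat storage, had 8.46, 9.26 and 5.56 (log2 ratio -0.13). Both stood above Control after 4 weeks of normal diet. Cidec, another droplet protein, differed, with 37.97 in HFHFr-N against 81.7 in HFHFr-F and 38.9 in Control (log2 ratio -1.11). Across the droplet and uptake list 4 of 23 genes were 2-fold lower, including Fabp4 (log2 ratio -1.65) and Lpl (-1.39), which are also made by macrophages and fat cells. Of the adipocyte markers, Adipoq, Retn, Plin1 and Lep were not well above background in either group. The 7 markers measured share Fabp4 and Cidec with the droplet list and include Aqp7, which was measured in HFHFr-F only, and these were the 3 at least 2-fold lower, while Cfd was 2-fold higher. The summed adipocyte signal was 384.9 in HFHFr-N, 483.0 in HFHFr-F and 212.0 in Control, of which Car3 made up 263, 338 and 133, and a second Car3 probe went the opposite way (0.94). The part of fat cells in the result was not tested.

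Sugar entry and breakdown gave 4 genes 2-fold lower of 23, and none higher (median -0.20). Pklr, liver pyruvate kinase, had signals of 0.647 in HFHFr-N, 1.57 in HFHFr-F and 0.536 in Control (log2 ratio -1.28), so that HFHFr-N lay close to Control. Hk2 and Aldoc, a hexokinase and an aldolase that are minor forms in hepatocytes, differed by -1.60 and -1.46. The fructokinase Khk (-0.13) differed by less than 2-fold, as did the fructose transporter Slc2a5 (0.68). Tkt, the transketolase of the pentose phosphate pathway, was lower in HFHFr-N at 21.2 against 59.3 in HFHFr-F and 31.0 in Control (log2 ratio -1.49). None of the 18 genes of gluconeogenesis and glycogen reached 2-fold in either direction (median -0.01).

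Fatty acid oxidation and PPARA targets held 3 genes 2-fold higher and 1 lower of 27 (median 0.16). The 3 higher genes were Cyp4a10, Cyp4a14 and Ehhadh, enzymes of microsomal and peroxisomal fatty acid oxidation. Cyp4a10 had signals of 502 in HFHFr-N, 217 in HFHFr-F and 625 in Control (log2 ratio 1.21), and Ehhadh had 70.1, 31.7 and 150.1 (log2 ratio 1.15). In both, HFHFr-F was the lowest of the 3 pools and HFHFr-N lay between it and Control. Cyp4a14, at a log2 ratio of 1.12, came under 2-fold with quantile (0.98) or loess (0.99) scaling. Pdk4, the kinase that shuts off pyruvate dehydrogenase in fasting, went the other way, with 1.01 in HFHFr-N, 5.05 in HFHFr-F and 2.47 in Control (log2 ratio -2.32). The mitochondrial oxidation enzymes Cpt1a (-0.18), Acadm (0.03) and Hadha (0.15) differed by little, and the thioesterase Acot2 by -0.77.

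Genes with higher expression in male than in female mouse liver, which depend on pulsatile growth hormone, included the 2 largest differences of the whole comparison. Hsd3b4 (chr3:98303072-98303131, mm9), a keto-steroid reductase of the 3-beta-hydroxysteroid dehydrogenase family, had signals of 4.71 in HFHFr-N, 0.118 in HFHFr-F and 7.25 in Control. That is a log2 ratio of 5.32, with HFHFr-F far under both other pools. Hsd3b5, its close relative, had 3.98 in HFHFr-N and 6.38 in Control but its HFHFr-F signal of 0.0469 was not well above background, and it was at least 54-fold higher in HFHFr-N. The 2 family members are near copies, and their probes may share signal. Slco1a1, a hepatic organic anion transporter, had 4.53 in HFHFr-N, 0.652 in HFHFr-F and 6.37 in Control (log2 ratio 2.80), and a second probe gave 2.98. Of 21 measured members 4 were 2-fold higher, the fourth being Cyp4a12b (log2 ratio 1.30), none was 2-fold lower, and the median was 0.54. Other members differed less: Cyp7b1, an oxysterol hydroxylase, by 0.71, Mup3, a major urinary protein, by 0.54, and Elovl3 by -0.16. Bcl6 was just under 2-fold lower (log2 ratio -0.99), and 4 of the 21 ratios were below 0.

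Female-biased genes did not share 1 direction. Of 19 measured, 4 were 2-fold higher in HFHFr-N and 6 were 2-fold lower. However, 4 members were measured only in HFHFr-F and could not be higher in HFHFr-N. Of the 15 measured on both arrays, 4 were 2-fold higher and 3 were 2-fold lower (median -0.07). Cyp2b9, a steroid hydroxylase, had signals of 22.8 in HFHFr-N, 66.1 in HFHFr-F and 2.76 in Control (log2 ratio -1.53), and Cyp2b13 had 5.30, 14.9 and 0.698 (log2 ratio -1.50). Both therefore stood between Control and continued feeding after withdrawal. Sult1e1, the estrogen sulfotransferase, was measured in HFHFr-F alone (0.633) and was at least 7.30-fold lower in HFHFr-N, but 4 of the 8 spots nearest to its probe on the HFHFr-F array were also bright, and 3 or more were for 0.837% of spots there. On the other side, Cyp3a16, Cyp3a41a and Cyp3a44 had log2 ratios of 1.76, 1.37 and 1.51, and Nnmt, nicotinamide N-methyltransferase, 1.51. Cyp3a11, which is not sex-biased and is nearly identical in sequence to those Cyp3a genes, had 248 in HFHFr-N, 85.0 in HFHFr-F and 276 in Control (log2 ratio 1.54), so the Cyp3a probes may report the same transcripts.

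**Figure D3:**
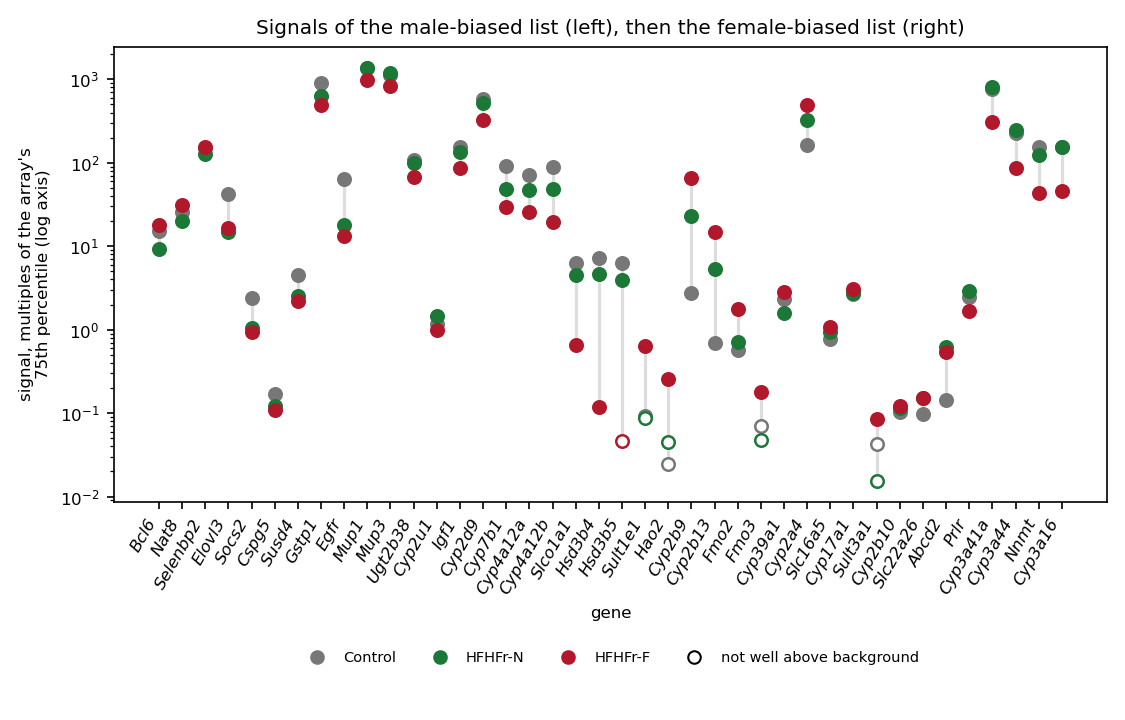
Signal of each measured gene (y axis, multiples of the array's 75th percentile, log axis) of the male-biased list and then the female-biased list (x axis), with 1 point per pooled array for Control (grey), HFHFr-N (green) and HFHFr-F (red), and open points where the probe was not well above background. HFHFr-F falls far under the other 2 pools at Slco1a1, Hsd3b4 and Hsd3b5, and far above Control at Cyp2b9 and Cyp2b13.

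Drug-metabolising enzymes held 4 of 31 genes 2-fold higher and none lower (median 0.02, or -0.09 with loess or median centring). They were Cyp3a11 and the Cyp2c genes Cyp2c37, Cyp2c39 and Cyp2c54, with Cyp2c37 at 159 in HFHFr-N, 66.9 in HFHFr-F and 148 in Control (log2 ratio 1.25). In the hormone signalling list, Igfbp2, a binding protein for insulin-like growth factors, had 104 in HFHFr-N, 27.2 in HFHFr-F and 195 in Control (log2 ratio 1.94). Igfbp1, which insulin represses, had 27.4, 97.4 and 76.7 (log2 ratio -1.83), so after withdrawal it was the lowest of the 3 pools. Igf1 differed by 0.64 and the other members of the 27 measured also stayed under 2-fold. Lepr, which encodes the receptor for leptin, was dim on both arrays.

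Urea cycle and amino acid catabolism genes leaned to higher signals after withdrawal without large single differences. Of 29 genes 23 had ratios above 0 and 1, Agxt, passed 2-fold, at a log2 ratio of 1.04 (0.92 with loess). Cps1, which makes carbamoyl phosphate, had signals of 117 in HFHFr-N, 62.8 in HFHFr-F and 163 in Control (log2 ratio 0.90). Asl and Ass1, the next steps of argininosuccinate handling, differed by 0.78 and 0.62. The list median was 0.50. Periportal hepatocyte markers, which share genes with it, had a median of 0.42 and summed signals of 903.4 in HFHFr-N, 737.9 in HFHFr-F and 1145 in Control, and pericentral markers had a median of 0.09 (-0.02 with loess or median centring). In the periportal list Etnppl, a phospholyase, and Hsd17b6 were 2.62-fold and 2.25-fold higher in HFHFr-N, whereas Aldh1b1, an aldehyde dehydrogenase, was 3.29-fold lower.

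Bile acid genes gave 3 of 23 higher and 1 lower (median 0.39). Besides Slco1a1, these were Nr0b2, the nuclear repressor SHP, with 2.16 in HFHFr-N, 0.904 in HFHFr-F and 2.32 in Control (log2 ratio 1.26), and Klb, the FGF co-receptor beta-klotho (log2 ratio 1.06, or 0.97 with loess and 0.95 with median centring). Cyp7a1, which starts and paces the making of bile acids, had 6.80, 9.90 and 4.78 (log2 ratio -0.54). Apoa4, a lipoprotein component, had 14.0 in HFHFr-N, 95.6 in HFHFr-F and 18.8 in Control. Its log2 ratio of -2.77 was the largest of the 23 lipoprotein genes, of which 2 were 2-fold lower and none higher.

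Markers of lipid-associated macrophages, the cells that gather around fat droplets, were the list with the lowest median. Of 12 measured genes 8 were at least 2-fold lower in HFHFr-N, and the median was -1.62. Of the 12, 2 were measured in HFHFr-F only and could not be higher in HFHFr-N, and 7 of the 10 measured on both arrays were lower (median also -1.62). Trem2 (chr17:48491522-48491581, mm9), a lipid-sensing receptor, had signals of 0.649 in HFHFr-N, 5.81 in HFHFr-F and 0.312 in Control. Its log2 ratio was -3.16, a second probe gave -3.13, and HFHFr-N lay nearer to Control. Cd63, a lysosomal tetraspanin, had 1.74 in HFHFr-N, 15.9 in HFHFr-F and 1.46 in Control (log2 ratio -3.19). Spp1, osteopontin, had 10.1, 60.4 and 7.66 (log2 ratio -2.58), and Itgax, which encodes CD11c, had 0.209 and 1.22 in the first pair and was not well above background in Control (log2 ratio -2.55). Gpnmb was measured in HFHFr-F alone, at 0.575, and was at least 7.41-fold lower in HFHFr-N. Lgals3 (galectin-3) differed by -1.85 and Cd68 by -1.19, whereas Plin2, also on the droplet list, differed by 0.10. Averaging all probes of each gene brought the list median to -0.99, Itgax to -0.80 and Gpnmb to -0.46.

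The macrophage markers did not all follow. Kupffer cell markers, for the resident macrophages of the liver, had 1 of 16 genes 2-fold lower (Marco, log2 ratio -1.40) and a median of -0.05. Clec4f, a lectin of resident Kupffer cells, had 12.9 in HFHFr-N, 11.3 in HFHFr-F and 10.3 in Control (log2 ratio 0.19), and Timd4, a receptor for dying cells, had 0.551, 0.304 and 0.555 (log2 ratio 0.86). Other markers of the list were lower by less than 2-fold, such as C1qa (-0.85) and Adgre1 (-0.70). In all 9 of the 16 ratios were below 0, and the summed signal was 142.4 in HFHFr-N, 197.4 in HFHFr-F and 118.9 in Control. Monocyte and neutrophil markers had 6 of 10 measured genes 2-fold lower and a median of -1.52, or -0.99 with all probes averaged. Of the 9 measured on both arrays, 5 were lower (median -1.26). Ly6c2, an inflammatory monocyte antigen, had 3.74 in HFHFr-N, 16.0 in HFHFr-F and 2.40 in Control (log2 ratio -2.10). Ccr2, the monocyte receptor for Ccl2, was measured in HFHFr-F alone, at 0.326, and was at least 4.21-fold lower in HFHFr-N. Averaged over all its probes, the bound was 0.00, which sets no difference and is not a measured ratio. In whole-liver RNA, fewer cells of a type and less RNA per cell cannot be told apart.

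**Figure D4:**
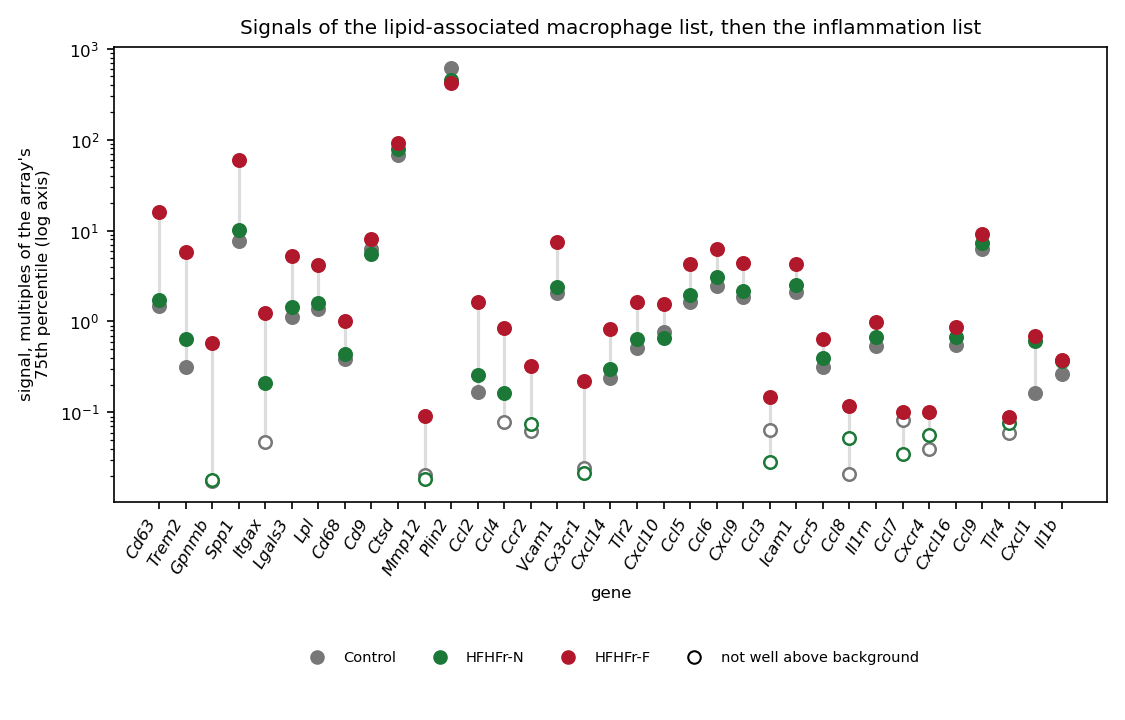
Signal (y axis, multiples of the array's 75th percentile, log axis) of the 12 measured lipid-associated macrophage markers and then the 23 measured inflammation genes (x axis), each ordered by its ratio, with 1 point per pooled array for Control (grey), HFHFr-N (green) and HFHFr-F (red), and open points where the probe was not well above background. HFHFr-F is the highest pool at Trem2 (5.81), Cd63 (15.9) and Ccl2 (1.65), and Control is the lowest of the 3 at each, with HFHFr-N at 0.649, 1.74 and 0.255.

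Inflammation genes were lower in the same array. Of 31 listed, 23 were measured, and 7 of these only in HFHFr-F, so that they could not be higher in HFHFr-N. Of the 23, 11 were at least 2-fold lower and none was higher (median -0.92), and of the 16 measured on both arrays 9 were 2-fold lower (median -1.04). The list median was -0.47 with normexp and -0.70 with all probes averaged. Ccl2, the chemokine that draws monocytes, had signals of 0.255 in HFHFr-N, 1.65 in HFHFr-F and 0.167 in Control (log2 ratio -2.69). Ccl4 had 0.163 in HFHFr-N and 0.840 in HFHFr-F (log2 ratio -2.37), and Vcam1, an adhesion molecule, had 2.41, 7.56 and 2.04 in the first pair and Control (log2 ratio -1.65). The interferon-inducible chemokines Cxcl9 and Cxcl10 differed by -1.04 and -1.25 and the pattern receptor Tlr2 by -1.35. Il1b, which encodes interleukin-1 beta, differed by -0.03, and Tnf and Il6 were not well above background in either group. Of the lipid-associated macrophage markers, 12 of 13 were well above background in HFHFr-F, 10 in HFHFr-N and 9 in Control. Their summed signal was 552.9 in HFHFr-N, 616.4 in HFHFr-F and 705.2 in Control, so by that measure Control was the highest pool. Trem2, Cd63 and Spp1 stood at 0.312, 1.46 and 7.66 in Control and at 5.81, 15.9 and 60.4 in HFHFr-F. The sums therefore came mostly from other, brighter members of the list, and their order is not that of these 3 markers. The summed monocyte and neutrophil signal was 75.4 in HFHFr-N, 129.7 in HFHFr-F and 54.9 in Control, and the part of these cells in the result was not tested.

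Antigen presentation and interferon genes were lower by smaller amounts. The 8 measured class II genes had a median of -0.80, and none reached 2-fold. H2-Ab1, a class II chain, had 10.6 in HFHFr-N, 18.7 in HFHFr-F and 9.29 in Control (log2 ratio -0.82). In the interferon list 7 of 29 were 2-fold lower (median -0.25), led by Ifi44 (log2 ratio -1.70) and Oasl2 (-1.32). Ubd, an ubiquitin-like protein that inflammatory cytokines induce, stood outside the lists and had signals of 1.56 in HFHFr-N, 19.6 in HFHFr-F and 0.834 in Control (log2 ratio -3.65). H2-Q1, a class I gene of a family of near copies, differed by -2.63.

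Matrix genes were also lower after withdrawal. Of 38 listed 29 were measured, 7 of them in HFHFr-F only, and 11 were at least 2-fold lower with none higher (median -0.81), against 8 of 22 measured on both arrays. The list median was -0.44 with normexp and -0.74 with all probes averaged. Col1a1 (chr11:94813075-94813134, mm9), the main chain of type I collagen, had signals of 0.410 in HFHFr-N, 3.64 in HFHFr-F and 0.209 in Control. Its log2 ratio was -3.15, and the HFHFr-N signal was nearer to Control but above it. Col3a1, the type III chain, had 1.76, 10.2 and 1.04 (log2 ratio -2.54, or -0.82 with all probes averaged), and Col1a2 had 2.38, 7.60 and 1.73 (log2 ratio -1.68, or -0.60). Timp1, an inhibitor of matrix proteases, had 1.90 in HFHFr-N, 4.23 in HFHFr-F and 2.10 in Control (log2 ratio -1.15). Fn1 (fibronectin), Dcn (decorin) and Bgn (biglycan) differed by -0.09, -0.09 and -0.15.

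Markers of stellate cells and fibroblasts, the main matrix makers, moved less than the collagens. Of 14 measured 1, Pdgfrb, a growth factor receptor, was 2-fold lower (log2 ratio -1.22), and the median was -0.13. Their summed signal was 75.01 in HFHFr-N, 78.6 in HFHFr-F and 74.5 in Control. Lrat, which stores retinol as esters in stellate cells, had 0.939, 0.954 and 0.773 (log2 ratio -0.02). Bile duct markers had 5 of 10 measured genes 2-fold lower and 1 higher, with a median of -1.05, or -0.79 with all probes averaged. Of the 10, 2 were measured in HFHFr-F only and could not be higher in HFHFr-N, and 4 of the 8 measured on both arrays were lower. Sox9, a ductal transcription factor, differed by -1.14, Krt19 by -1.32, and Krt7 by -1.19 (-0.49 with all probes averaged), while Aqp1 differed by 0.33 and Krt23 by 1.44. Their summed signal was 33.7 in HFHFr-N, 77.4 in HFHFr-F and 28.0 in Control. Of these sums Spp1, also on the macrophage list, made up 10.1, 60.4 and 7.66, so HFHFr-F was the highest pool only through Spp1. Spp1 was also among the 5 lower markers. Endothelial markers had a median of 0.04 (-0.07 with median centring) and 1 of 16 was 2-fold lower.

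**Figure D5:**
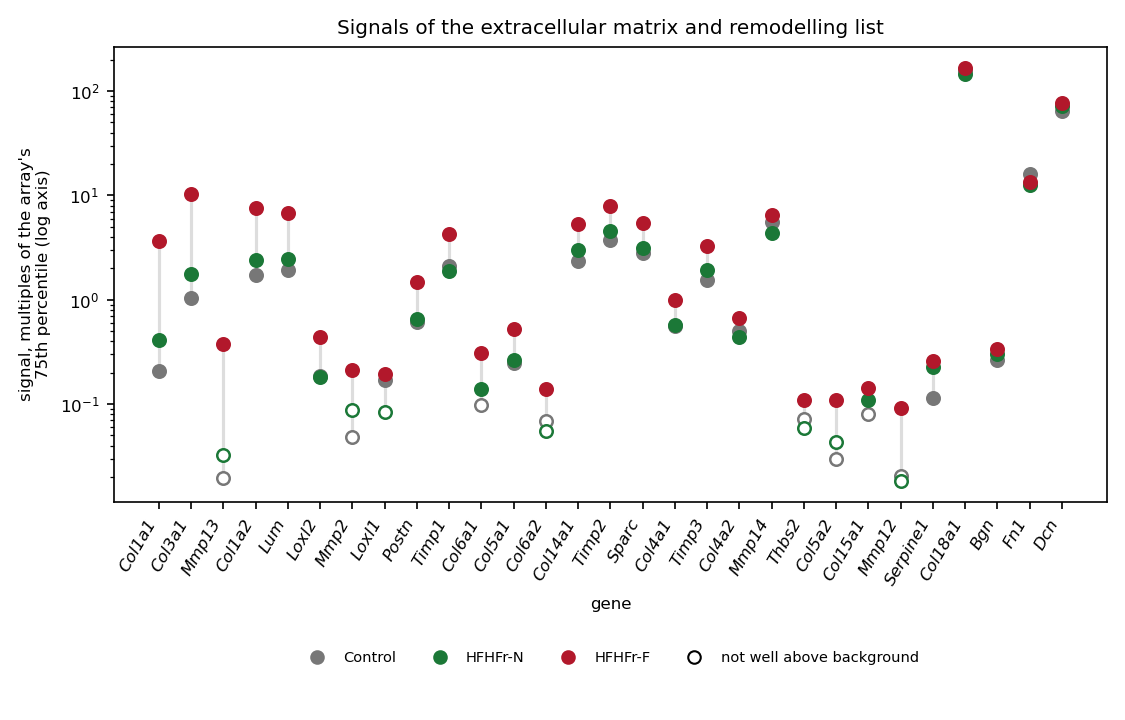
Signal (y axis, multiples of the array's 75th percentile, log axis) of the 29 measured matrix genes (x axis, ordered by ratio), with 1 point per pooled array for Control (grey), HFHFr-N (green) and HFHFr-F (red), and open points where the probe was not well above background. HFHFr-F is highest at Col1a1 (3.64) and Col3a1 (10.2), and the 3 pools nearly meet at Dcn and Fn1.

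The gene with the lowest ratio among those measured on both arrays was Cdkn1a (chr17:29237377-29237436, mm9), the cyclin-dependent kinase inhibitor p21. It had signals of 0.238 in HFHFr-N, 3.97 in HFHFr-F and 0.618 in Control, a log2 ratio of -4.06, and HFHFr-N was the lowest pool. Of the 17 measured genes of the p53 and growth arrest list, 3 were 2-fold lower, the other two being Btg2 (-1.60) and Phlda3 (-1.45). In the cell cycle list 8 of 22 were 2-fold lower (median -0.50). Of the 22, 3 were measured in HFHFr-F only, and 6 of the 19 measured on both arrays were lower (median -0.35, or -0.22 for the list with normexp). Among them were Mki67 (0.158 in HFHFr-N, 0.469 in HFHFr-F and 0.140 in Control) and Mcm6, a replication helicase subunit (log2 ratio -1.20). Immediate early genes, which respond fast to stress and growth factors, had 9 of 21 lower (median -0.56), but 3 of the 21 were measured in HFHFr-F only, and of the 18 measured on both arrays 7 were lower with a median of -0.11. The median was -0.12 with normexp and -0.16 with all probes averaged. Atf3 had 0.246, 1.44 and 0.133 (log2 ratio -2.54), Myc 0.282, 1.15 and 0.360 (log2 ratio -2.04), and Egr1 0.929, 2.43 and 1.79 (log2 ratio -1.38). Junb and Dusp1 differed by 0.31 and -0.16.

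The acute phase list split. Of 29 genes 7 were 2-fold lower and 1 was higher (median -0.16). Lcn2, the siderophore-binding lipocalin, had 0.419 in HFHFr-N, 2.81 in HFHFr-F and 0.0703 in Control, where it was not well above background (log2 ratio -2.75). Saa1, serum amyloid A, had 118 in HFHFr-N, 289 in HFHFr-F and 38 in Control (log2 ratio -1.29), and remained above Control after withdrawal. Saa2, a near copy, gave -1.29. Hamp, which encodes hepcidin, the hormone that limits iron release, was the 1 gene higher, with signals of 153 in HFHFr-N, 33.2 in HFHFr-F and 120 in Control (log2 ratio 2.21). The fibrinogen gene Fgb differed by 0.35 and haptoglobin, Hp, by -0.24.

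Retinoid genes are of interest because the other pair received retinoic acid. Of 25 measured, 2 were 2-fold higher and 2 lower. Cyp26a1 (chr19:37775566-37775625, mm9), a cytochrome P450 that breaks down retinoic acid and is induced by it, had 1.46 in HFHFr-N, 0.276 in HFHFr-F and 1.53 in Control (log2 ratio 2.40), so the withdrawal pool lay at the Control level. Retsat, retinol saturase, was at 1.04 (0.92 with loess), and Bco1, which cleaves carotene, at -1.15. The Cyp26a1 promoter is shown for an exact spelling of a direct repeat bound by retinoic acid receptors, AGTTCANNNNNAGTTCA, searched on both strands. That spelling was found in 7 of 27025 genes (0.0259%). Other spellings and spacings were not searched, so how rare such repeats are was not determined. The match lies on the opposite strand, in capitals, 32 bases before the start, in the window chr19:37697728-37697807 (GRCm38.p6, plus strand).
Cyp26a1: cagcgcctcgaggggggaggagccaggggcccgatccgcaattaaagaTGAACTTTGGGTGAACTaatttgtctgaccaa

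Circadian clock genes differed in both directions. Of 16 measured, 3 were 2-fold higher and 1 was lower. Nr1d1, the repressor REV-ERB alpha, had 0.925 in HFHFr-N, 0.137 in HFHFr-F and 1.06 in Control (log2 ratio 2.76). Dbp, an output transcription factor of the clock, had 118, 30.1 and 46.4 (log2 ratio 1.97), and Ciart had 0.827, 0.219 and 0.165 (log2 ratio 1.91). Arntl, which encodes the activator BMAL1 and is repressed by REV-ERB alpha, was not well above background in HFHFr-N, had 0.423 in HFHFr-F and 0.441 in Control, and was at least 5.46-fold lower in HFHFr-N. For Nr1d1 and Arntl the low and high pools were therefore reversed, and Control lay with HFHFr-N for Nr1d1 but with HFHFr-F for Arntl. Per1 (0.50), Per2 (0.09) and Clock (-0.01) stayed under 2-fold. The labels give no hour of sampling, and its part in these values was not tested. The E-box CACGTG reads the same on both strands and is bound by CLOCK and BMAL1. It stood in the promoter of 5 of the 17 clock genes with an entry (29.4%) against 6.86% of all genes, and in 5 of the 18 cholesterol genes (27.8%). The clock genes were Ciart, Per1 (log2 ratio 0.50), Tef (0.61), and Bhlhe41 and Cry1, which were dim on both arrays. Of the clock genes past 2-fold, only Ciart had a match, so the share does not describe the genes that differed. Ciart, shown with its boxes in capitals (chr3:95882254-95882353, GRCm38.p6, minus strand), held 3.
Ciart: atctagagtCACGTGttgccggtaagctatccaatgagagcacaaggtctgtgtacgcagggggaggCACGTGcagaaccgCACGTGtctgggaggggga

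Other lists held few genes past 2-fold. Heat shock chaperones had 2 of 17 lower, the inducible Hsp70 genes Hspa1a (log2 ratio -2.01) and Hspa1b (-1.32), which are near copies. The lysosome list had 1 of 25 lower (Psap, -1.22), endoplasmic reticulum stress 1 of 26 lower (Eif2ak3, -1.02, which turned to 0.46 with all probes averaged), and oxidative phosphorylation 1 of 30 lower. NRF2 targets had 2 of 23 lower, among them Hmox1, heme oxygenase, with 4.69 in HFHFr-N, 13.2 in HFHFr-F and 4.07 in Control (log2 ratio -1.50). The amino acid response list had 5 of 18 lower, or 4 of the 17 measured on both arrays. Among them were Asns, asparagine synthetase, at 0.397, 1.08 and 2.42 (log2 ratio -1.44), and Nupr1, a stress-induced nuclear protein, at -1.69.

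A background correction that adds an offset of 50 to each spot (normexp) drew the ratios of dim genes toward 0. Under it Arntl (-0.89), Asns (-0.81), Mki67 (-0.52), Krt19 (-0.29), Krt7 (-0.62), Ccr2 (-0.59), Bco1 (-0.48), Scd2 (-0.97), Pklr (-0.94), Ifi44 (-0.84), Oasl2 (-0.90), Hspa1b (-0.93), Eif2ak3 (-0.85) and Nr0b2 (0.99) came under 2-fold, each keeping its sign. Agxt (0.95), Retsat (0.95), Serpina1c (0.88) and Klb (0.89) also did, but these are not dim and were barely past 2-fold at first. They came under 2-fold with loess and median centring too. With all probes averaged, Tkt (-0.98), Hspa1b (-0.88) and Klb (0.59) did so as well.

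The pair with retinoic acid, HFHFr-NA and HFHFr-FA, makes the same change of diet and shares no array with the first, but HFHFr-FA lay alone on a second slide, so the slide and the group cannot be told apart for it. There 2.49% of 15045 genes were 2-fold higher in HFHFr-NA and 3.27% were lower, 5.76% in either direction. Cdkn1a had a log2 ratio of -3.67 there against -4.06 without retinoic acid, Ccl2 -2.55 against -2.69, Nr1d1 at least 3.18 against 2.76 and Cyp26a1 2.69 against 2.40. The inflammation list had a median of -0.995 in that pair and -0.92 in the first, and the matrix list -0.65 and -0.81. For other genes the values lay far apart: Hsd3b4 had -0.59 with retinoic acid and 5.32 without, Slco1a1 -0.38 and 2.80, Thrsp 0.36 and -3.36, Apoa4 0.23 and -2.77, and Hamp 0.21 and 2.21. Cholesterol genes had a median of 0.07 against -0.78, with 5 of 26 lower against 10. Kupffer markers had a median of -1.03 against -0.05, with 10 of 16 lower against 1. These differences between the pairs were not tested.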

How the data were processed

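Pooled liver RNA of 5 groups was hybridised in 1 colour to whole mouse genome arrays. Per the file headers, the scanner software was Feature Extraction 10.5.1.1 and probe positions are in mm9. The deposited processed intensity is background-subtracted and unscaled between arrays. In the deposited value table the authors divided it by a constant of each array, a linear uncentred ratio running the same way as the signal. The basis of that constant is unknown, but on every array it lay slightly under the 75th percentile used here. It was 165 against 172 in HFHFr-N and 215 against 223 in HFHFr-F. The columns of the deposited value table had medians of 0.0675 (HFHFr-F), 0.0700 (Control), 0.0721 (HFHFr-FA), 0.0738 (HFHFr-N) and 0.0744 (HFHFr-NA). Outlier spots were left out (60 in HFHFr-N, 95 in HFHFr-F), and no spot was saturated.

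The log2 processed signal was centred on the 75th percentile over non-control spots, which was 172 in HFHFr-N and 223 in HFHFr-F, and averaged over spots of a probe. RefSeq accessions named 24844 of 41174 probes, and 16330 kept the file's name. The brightest probe stood for a gene. Exon and untranslated region were not determined. A bound sets the measured signal against the higher of the dim probe's own and the lowest measured signal on that array; 552 genes were dim in HFHFr-N and 593 in HFHFr-F. HFHFr-N, HFHFr-F and Control shared a slide. There were 29 pathway and 17 marker lists with 924 different genes, of which 804 were measured. Named genes were, among genes with a proper symbol (no clone, RIKEN, LOC, Gm or accession names), the 15 highest and 15 lowest ratios measured on both arrays, 5 bounds each way, up to 5 members per list and a set of diet and retinoid genes. Members and lists were chosen with earlier results of these data known; genes given in the text beyond the rule are list members chosen after their values were seen. Quantile and loess scaling, median centring, normexp background (limma 3.58.1, R 4.3.3), detection filters, all probes averaged, the deposited table and 1.5- and 3-fold thresholds were tried. Some list members are counted but not reported here by name.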

Additional observations from a re-analysis of the deposited data

Results flagged for a closer look

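For 3 of the named genes the ratio passed 2-fold in opposite directions in the diet pair with retinoic acid and the pair without, and the difference between the pairs was not tested for any of them. Asns had a log2 ratio of -1.44 for HFHFr-N over HFHFr-F and 2.74 for HFHFr-NA over HFHFr-FA. Taf15, an RNA-binding protein, had -3.06 and 1.14, with signals of 0.244 in HFHFr-N, 2.04 in HFHFr-F and 1.43 in Control. Cfd, the complement factor adipsin, had 1.13 and -1.56, with signals of 67.9 in HFHFr-N, 31.0 in HFHFr-F and 28.2 in Control.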

How the results depend on the processing

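No paired analysis was possible because each group was 1 array. The counts of 319 higher and 538 lower genes were 260 and 591 with quantile scaling, 324 and 531 with the deposited table, and 318 and 450 with all probes averaged. Cyclic loess gave 219 and 677 and median centring 229 and 666, which moved the higher share of differing genes from 37.2% to 24.4% and 25.6%. Normexp background gave 84 and 194, no detection filter 1497 and 1233 (54.8% higher), genes measured on both arrays 216 and 412, the 1.5-fold threshold 1370 and 1347, and the 3-fold threshold 68 and 148. Of 145 named genes past 2-fold, 141 remained so with quantile scaling, 140 with loess, 141 with median centring, 103 with normexp and 124 with all probes averaged. The deposited table and no filter kept all 145, and leaving out bounds kept the 123 measured on both arrays. These last settings are no check of the calls. Leaving out bounds changes no ratio, no filter can only widen a bound, and the deposited table shifts all ratios alike by a small amount. Averaging all probes turned Cenpe from -1.21 to 0.083 and Eif2ak3 from -1.02 to 0.46. Other probes went against the chosen one for Car3, Ppp1r3c and Kdm2b. The list medians of lipid-associated macrophages, monocytes and neutrophils, and bile ducts, all under -1 at first, were -0.99, -0.99 and -0.79 with all probes averaged and -1.29, -0.67 and -0.29 with normexp. Those of inflammation and matrix were -0.70 and -0.74 with all probes averaged and -0.47 and -0.44 with normexp. Pooling leaves the spread between mice unknown, and low signals limit the ratios of dim genes.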

Other observations

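Several genes with the largest differences are not typical of liver. Olfr1387 and Olfr283, olfactory receptor genes, were measured in HFHFr-N and not in HFHFr-F, at 1.41 and 0.621, and were at least 19.1-fold and 8.44-fold higher. Olfr283 was also measured in Control, at 0.582, and its ratio came to 0.67, under 2-fold, with all probes averaged. Zfp101, a zinc finger gene, had 1.40 in HFHFr-N, 0.156 in HFHFr-F and 0.238 in Control. For Zfp101 and Gpr21, 5 of the 8 nearest spots on the HFHFr-N array were also bright, and 3 or more were for 0.272% of spots there. On the HFHFr-F array 4 of 8 were bright at Gzma and 3 of 8 at Psat1, and 3 or more were for 0.837% of spots there.

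Among the lowest ratios outside the lists, Spink1, a trypsin inhibitor, had signals of 0.142 in HFHFr-N and 1.45 in HFHFr-F and was not well above background in Control. Tff3, a trefoil peptide of mucosal repair, had 0.175, 1.55 and 0.200, and Sdcbp2, a syntenin, had 0.240 and 2.27 and was not well above background in Control. In the pair with retinoic acid the log2 ratios were -0.35 for Spink1, 0.36 for Tff3 and 0.69 for Sdcbp2.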
